A study of Mus musculus with 38 samples.

Results

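The class I olfactory receptor genes of the mouse were followed here by CUT&RUN coverage of the inner nuclear membrane protein LAP2B. They were taken as the protein-coding genes whose symbols begin with Or51, Or52, Or53, Or54, Or55 or Or56 followed by a letter, which gave 137 of the 78202 genes in the tables. Or51 held 54 of them, Or52 held 68, Or55 held 3 and Or56 held 12, and no gene carried an Or53 or Or54 name. The study asked how the nuclear lamina and the lamin B receptor (LBR) hold chromatin at the nuclear edge, and compared 4 genotypes of mouse embryonic stem cells (mESCs). WT cells came from a littermate of the embryo that gave the TKO line, which lacks all lamins. LBRKO cells are WT cells with Lbr disrupted by CRISPR, and QKO cells are TKO cells with Lbr disrupted in the same way. QKO is a single clone, so that its genotype and its clonal history cannot be told apart, and TKO is a line of its own. Each genotype was profiled as naive mESCs, grown in serum-free medium with 2 kinase inhibitors and LIF, and as epiblast-like cells (EpiLCs), which model primed pluripotency and were made with 20 ng/mL FGF and 12 ng/mL activin A, both collected at 48 h. LAP2B was measured in all 8 combinations of genotype and stage, and the lamin B1 antibody (LMNB1) and the antibody control (IGG) in WT of both stages, with 3 samples of 200000 cells in each of these 12 groups. The labels do not say that the 3 samples were separate cultures, so the p-values measure the spread between these samples, which may be technical.

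Class I receptors are the older, fish-like branch of the olfactory receptors, G protein-coupled receptors that bind odorants on the cilia of olfactory neurons. In mammals they sit in a single cluster around the beta-globin genes, whereas class II receptors are spread over many chromosomes. A neuron expresses a single receptor allele and keeps the other receptor genes in heterochromatin, and in cell types without a sense of smell these gene clusters are silent and commonly lie at the nuclear edge. Lamins and LBR are the main tethers of heterochromatin at that edge. LAP2B, which spans the inner nuclear membrane, serves in CUT&RUN as a mark of DNA close to it, since the tethered nuclease cuts the DNA next to the antibody.

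On GRCm39, 135 of the 137 genes lay on chromosome 7 between 102125786 and 105018562, a stretch of 2.89 Mb, and Or52n4b and Or56b1b lay 3.13 Mb beyond its end. The genes ran in both directions (71 on the plus and 66 on the minus strand) and were 936 to 20968 bp long, with a median of 5880 bp. They are neighbours in 1 locus, with 38 sharing a 1 kb bin of the coverage with another gene of any type and 25 overlapping another gene. They are therefore not replicates of each other, and no p-value over the list is given. A further 23 class I pseudogene rows were not counted as members.

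The 250 bases upstream of the annotated start are printed for a pair of genes that the results return to. Or56a3 had the largest fall of LAP2B in QKO, and Or51e2 (Olfr78) is a receptor known for its expression outside the nose. The sequences were read from the GRCm39 genome on the strand of the gene, at chr7:104730162-104730411 (plus) for Or56a3 and chr7:102408686-102408935 (minus) for Or51e2.
Or56a3: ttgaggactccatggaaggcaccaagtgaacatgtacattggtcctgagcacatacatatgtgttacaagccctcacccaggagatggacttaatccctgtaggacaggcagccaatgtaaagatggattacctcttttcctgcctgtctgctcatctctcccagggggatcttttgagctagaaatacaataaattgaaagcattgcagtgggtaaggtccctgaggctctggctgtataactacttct
Or51e2: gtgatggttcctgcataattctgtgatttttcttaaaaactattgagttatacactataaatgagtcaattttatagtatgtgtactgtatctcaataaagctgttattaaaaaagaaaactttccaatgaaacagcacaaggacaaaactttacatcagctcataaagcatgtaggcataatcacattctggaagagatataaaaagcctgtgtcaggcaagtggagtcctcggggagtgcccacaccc
TAATTA, the core of homeodomain sites such as those of LHX2, reads the same on both strands and is in neither stretch, so no base is in capitals. It occurred in the 250 upstream bases in 20 of the 137 class I genes (14.6%), in 247 of 1056 class II genes (23.4%) and in 1225 of 21683 protein-coding genes (5.65%). The upstream sequences of the class I genes had a median GC content of 39.6% with a median of 1 CG dinucleotide, against 51.2% and 6 over all protein-coding genes. A match of letters is a description of the sequence and not a site.

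Deposited values are spike-in scaled signal summed over the 1 kb bins that a gene touches, and whole reads could be recovered from them. Summed over all genes, with a shared bin counted for each gene, they came to 12028659 to 45689196 per library. The median over a class I gene was 34 to 284 reads. The spike-in scale is that value, and the relative scale divides it by the library's median gene, so that it shows where in the genome LAP2B lay and not how much of it there was. To compare genes of different length, a level per bin was used, the value per 1 kb bin divided by the same quantity for the library's median gene, so that 1 is that gene. Tests were limma moderated tests, two-sided and with Benjamini-Hochberg adjustment over the 70381 genes left after the lowest 0.1 of all genes by mean signal had been dropped, and a gene was called at an adjusted p under 0.05. Of the members, 133 were tested. Or51b6b, Or51v8, Or52z15 and Or51i1 were listed at 0 in all 36 libraries, and the study left blacklisted regions out of its coverage, whose part in these zeros was not tested. The reads are DNA, so no transcript marker could check the cell type, and coverage over a deleted gene does not check the genotype. Over Lbr the level ranged from 0.64 to 0.86 in naive WT and from 1.13 to 1.37 in naive LBRKO, and over Lmna from 0.64 to 1.49 in naive WT and from 5.12 to 9.72 in naive QKO.

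In naive WT cells class I genes carried more LAP2B and more LMNB1 than the median gene. Their median LAP2B level per bin was 1.641, 2.131 and 1.615 in the 3 libraries (1.795 ± 0.291, SD, n = 3), and 3 of the 133 tested genes had a mean below 1. With the LMNB1 antibody the medians were 2.653, 1.847 and 2.234 (2.245 ± 0.403), and with IGG they were 1.021, 0.773 and 0.867 (0.887 ± 0.125). The IGG libraries thus placed the cluster close to the median gene, below every WT library of the other antibodies, although the 3 tables were scaled separately and these levels were set side by side without a test.

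Individual members ranged from 0.217 to 3.594 in naive WT LAP2B, with 1.344 and 2.366 at the 10th and 90th percentiles. The highest were Or56b34 (3.717, 3.784 and 3.281 in the 3 libraries), Or52l1 (2.820, 3.279 and 2.875) and Or56a5 (2.631, 3.351 and 2.665), all 3 in the last 0.5 Mb window of the cluster. Or56b34 is short, and 60.43% of its 50-base windows were unique in the genome, so that its reads are less certain than those of most members, whose median was 96.85%. At the other end stood Or51k1 (0.167, 0.234 and 0.25), which was at 0.106 to 0.404 in every group including IGG and lies beside Or51i1, one of the genes listed at 0. Across the 133 genes the LAP2B level went with the LMNB1 level (Pearson r = 0.70, Spearman rho = 0.64) and less with the IGG level (0.44 and 0.45) or GC content (0.33 and 0.43), and hardly with gene length (-0.02 and 0.05) or uniqueness (0.03 and 0.10). These correlations describe neighbouring genes within the same libraries and carry no test.

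**Figure D1:**
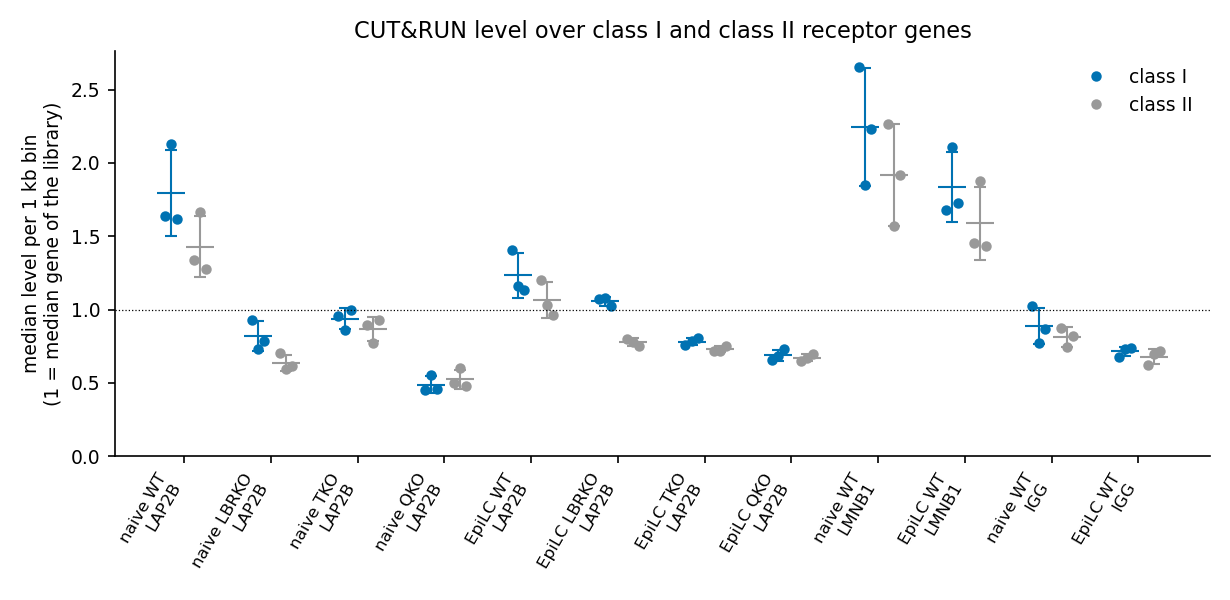
Median CUT&RUN level per 1 kb bin (1 is the library's median gene) over the tested class I and class II receptor genes in each of the 12 groups. Points are libraries, dashes and bars the mean and SD of 3; class I in naive LAP2B stepped from a mean of 1.795 (WT) to 0.938 (TKO), 0.818 (LBRKO) and 0.488 (QKO).

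LAP2B over the class I genes was lower in naive cells that lack LBR, the lamins or both. The median level per bin was 0.932, 0.733 and 0.789 in LBRKO (0.818 ± 0.102, SD, n = 3), 0.954, 0.861 and 0.998 in TKO (0.938 ± 0.070) and 0.451, 0.555 and 0.458 in QKO (0.488 ± 0.058). Every mutant library lay below every WT library, and the QKO libraries also lay below all those of LBRKO and TKO. The number of tested members with a mean below 1, the median gene, was 3 in WT and rose to 98 in LBRKO and 89 in TKO, and in QKO it reached 130. Of the 4 genotypes, WT was highest for 128 of the 133 genes and QKO lowest for 126, with LBRKO lowest for 6 and TKO for 1. This order was not counted over all genes, so it describes the members alone.

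Gene by gene on the relative scale, LAP2B fell over 122 of the 133 tested members in LBRKO, against 27.7% of all tested genes called lower, with a median log2 change of -1.12 (0.04 over all genes). In TKO it fell over 109, against 27.6% of all genes, with a median of -0.98 (-0.11 over all genes). In QKO it fell over 129, against 42.5% of all genes, with a median of -1.95 (-0.23 over all genes). No member rose in any of these 3 comparisons, which share the WT libraries. All 3 mutant libraries lay below all 3 WT libraries for 117 members in LBRKO, 111 in TKO and 128 in QKO, against 28.5%, 29.4% and 42.1% of all genes. The changes ran from -1.80 to 0.30 in LBRKO, from -1.54 to 0.17 in TKO and from -2.73 to -0.26 in QKO, so that the last interval does not reach 0.

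**Figure D2:**
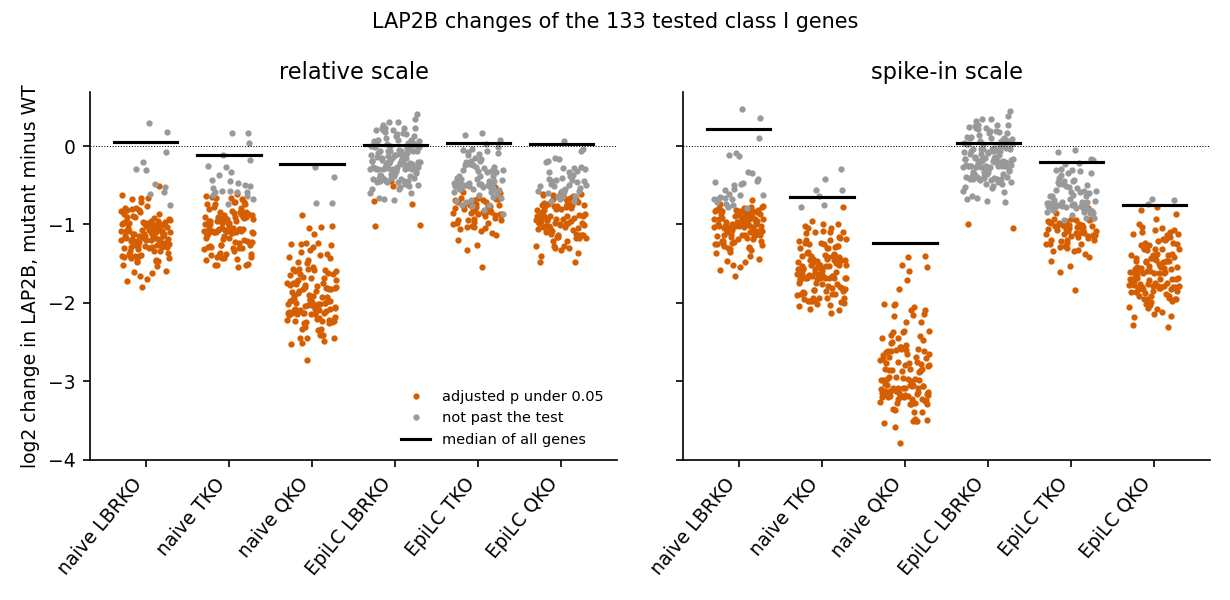
Log2 change in LAP2B of the 133 tested class I genes, mutant minus WT, on the relative and the spike-in scale for both stages. Each dot is a gene, orange where the adjusted p is under 0.05, and the black line is the median of all tested genes; naive QKO genes centre at -1.95 on the relative and -2.95 on the spike-in scale.

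Or56a3, a member of the Or56 subfamily in the distal part of the cluster (chr7:104730412-104739849), lost the most in QKO. Its level was 1.996, 3.157 and 2.784 in naive WT against 0.303, 0.465 and 0.5 in QKO. LBRKO libraries read 1.229, 0.970 and 0.819, and TKO libraries 1.084, 1.111 and 0.851. The WT libraries did not overlap with those of any mutant, and the QKO libraries lay below all others. Naive WT IGG libraries, in a table scaled separately, read 1.142, 0.752 and 0.733 over this gene, so its QKO values lay below them. Whether that low level sets the size of the fall was not tested. The log2 change was -2.73 ± 0.21 in QKO (SE, adjusted p 5.67e-17), -1.39 ± 0.21 in LBRKO (1.41e-07) and -1.43 ± 0.21 in TKO (1.45e-07). Its 50-base windows were 80.75% unique, so that its reads are less certain than those of most members. Or51a43 and Or56a4 followed in QKO, with -2.52 ± 0.23 (1.75e-14) and -2.51 ± 0.20 (1.20e-16).

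On the relative scale the strongest losses in LBRKO were those of Or52z13 (-1.80 ± 0.27, adjusted p 1.36e-07), Or51ab3 and Or52j3 (-1.70 ± 0.22, 6.29e-09). Or51ab3 was at 1.289, 1.797 and 1.113 in naive WT and at 0.423, 0.285 and 0.470 in LBRKO, a change of -1.73 ± 0.23 (adjusted p 1.03e-08). In TKO it was at 0.757, 0.678 and 0.689, above all LBRKO libraries, a difference of 0.73 ± 0.23 that is given as a description, since the gene was named for its low LBRKO value. QKO gave 0.475, 0.635 and 0.406, which overlapped LBRKO, with a difference of 0.16 ± 0.23. With spike-in scaling the lowest of the 3 mutants was QKO for all 3 genes, and Or51ab3 stood at -2.63 ± 0.33 in QKO, with nearly equal changes of -1.58 ± 0.33 (LBRKO) and -1.57 ± 0.33 (TKO).

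In TKO the lowest changes on the relative scale were those of Or52e4 (-1.54 ± 0.20, adjusted p 1.54e-08), Or52n4 (-1.52 ± 0.23, 2.19e-07) and Or51t4 (-1.52 ± 0.31, 4.93e-05). Or52e4 stood at 2.113, 2.595 and 1.865 in WT and at 0.845, 0.631 and 0.831 in TKO, with LBRKO in between at 1.190, 0.905 and 0.843 and partly overlapping TKO. For this gene TKO and LBRKO differed by -0.38 ± 0.20, which did not pass (adjusted p 0.147).

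The Or55 genes lie at the start of the cluster. Or55b3, the first of them, was at 1.261, 2.468 and 1.719 in naive WT and 2.168, 1.630 and 1.389 in QKO. LBRKO libraries read 2.468, 1.888 and 2.438, and TKO libraries 2.166, 1.980 and 2.271. All 4 groups overlapped, and the changes of 0.30 ± 0.20 in LBRKO (adjusted p 0.197), 0.17 ± 0.20 in TKO (0.487) and -0.26 ± 0.20 in QKO (0.221) did not pass. Or55b4, which like Or51e2 is known from tissues outside the nose, gave 0.17, -0.18 and -0.40 (adjusted p 0.455, 0.446 and 0.060). Or55b10 was called in QKO (-0.88, adjusted p 0.000129), the only call among the 3 Or55 genes against naive WT on the relative scale, and it is named after its value was seen. On the spike-in scale Or55b3 and Or55b4 both fell in QKO (-1.42 ± 0.30, adjusted p 3.33e-06, and -1.54 ± 0.30, 6.39e-07), and Or55b4 fell in TKO (-0.78 ± 0.30, 0.022). By subfamily, the genes that fell in LBRKO, TKO and QKO were 50, 43 and 50 of 51 in Or51, 62, 56 and 66 of 67 in Or52 and 10, 10 and 12 of 12 in Or56. Besides Or55b3 and Or55b4, the genes that did not pass in QKO were Or52s1 (-0.73, adjusted p 0.083) and Or51k1 (-0.73, adjusted p 0.051). Or52b6-ps1, whose symbol is that of a pseudogene though the tables class it as protein-coding, passed in QKO alone (-1.02, adjusted p 0.000469), with -0.07 in LBRKO and 0.03 in TKO.

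Or51e2 (chr7:102387718-102408685) is the longest member with 20968 bp. Its naive level was 1.799, 2.088 and 1.619 in WT against 0.468, 0.567 and 0.496 in QKO. Between them lay LBRKO, with 1.154, 0.744 and 0.817, and TKO, with 1.102, 0.963 and 1.017. The changes of LBRKO, TKO and QKO were -1.07 ± 0.15 (adjusted p 1.76e-08), -0.92 ± 0.15 (7.68e-07) and -2.02 ± 0.15 (6.84e-18), and every mutant library lay below every WT library. Its neighbour Or51e1 fell by 1.22, 0.84 and 1.82 on the log2 scale in the same order (adjusted p 3.92e-07, 0.00029 and 3.37e-12).

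**Figure D3:**
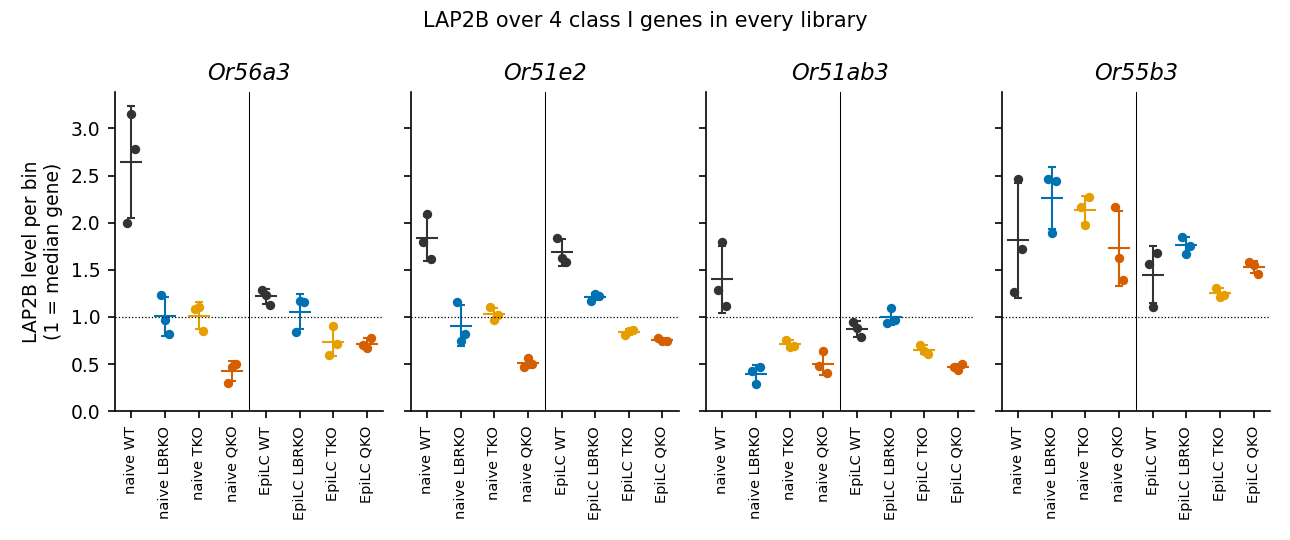
LAP2B level per bin (1 is the median gene) of Or56a3, Or51e2, Or51ab3 and Or55b3 in all 24 LAP2B libraries. Points are libraries and dashes with bars the mean and SD of 3; Or56a3 in naive cells went from 1.996 to 3.157 in WT down to 0.303 to 0.5 in QKO, while the naive groups of Or55b3 overlapped.

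The naive mutants were also compared directly with each other. Whether LBR and the lamins hold the cluster separately was not tested. LAP2B was lower in QKO than in TKO over 111 members, against 27.2% of all genes, with a median difference of -0.92. It was lower in QKO than in LBRKO over 97, against 31.5% of all genes, with a median of -0.83. Between the single defects the order depended on the scale. On the relative scale TKO was higher than LBRKO over 10 members (15.9% of all genes) and lower over 2 (21.5% of all genes), with a median of 0.12. The 10 became 4 without naive LBRKO replicate 2, and the count was higher when libraries were divided by their mean gene, as given below. By spike-in it was higher over 0 members and lower over 43, against 53.5% of all genes, with a median of -0.60 (-0.74 over all genes). The members higher in TKO on the relative scale included Or51ab3, Or52z13 (0.72 ± 0.27) and Or52j3 (0.61 ± 0.22), which were named for their low LBRKO values, a choice that favours this direction. By spike-in the latter pair stood at -0.02 and -0.11.

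The level differed along the cluster. Cut into 0.5 Mb windows from the first gene, the naive WT level was 1.856, 1.477, 1.555, 2.013, 1.938 and 2.201, lowest in the windows from 0.5 to 1.5 Mb, which run up to and past the beta-globin genes. In LBRKO the windows stood at 0.958, 0.554, 0.625, 0.948, 0.837 and 1.173, with the same pair lowest. The TKO levels were more even, at 1.001, 0.824, 0.880, 1.095, 0.909 and 1.003, and the QKO levels lay between 0.417 and 0.544 throughout. The windows are a description without a test, since neighbouring genes share their chromatin. IGG also differed in part along the cluster. Among the named tested members the naive WT IGG level ran from 0.675 (Or52z13) to 1.042 (Or52s1) between 0.5 and 1.5 Mb. In the last window it ran from 0.85 (Or52w1) to 1.566 (Or56b34). The part of background in the window levels was not tested.

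Both members beyond the cluster, singled out after their values were seen, had smaller fitted changes in QKO than the median member. Or52n4b touches 2 bins and Or56b1b 1, and the log2 scale of the fit understates changes of genes with low summed signal. The part of gene length in this difference was not tested. Or52n4b was at 0.804, 1.838 and 1.828 in naive WT and at 0.580, 0.476 and 0.542 in QKO (-1.25 ± 0.32, adjusted p 0.000413). Or56b1b was at 1.138, 1.514 and 0.937 in WT and at 0.129, 0.423 and 0.667 in QKO (-1.04 ± 0.31, adjusted p 0.002). In TKO neither passed (-0.25, adjusted p 0.528, and -0.26, adjusted p 0.492), and in LBRKO only Or52n4b did (-0.80 ± 0.32, adjusted p 0.029, against -0.20, adjusted p 0.596). By spike-in Or52n4b did not pass in LBRKO either (-0.68, adjusted p 0.104).

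**Figure D4:**
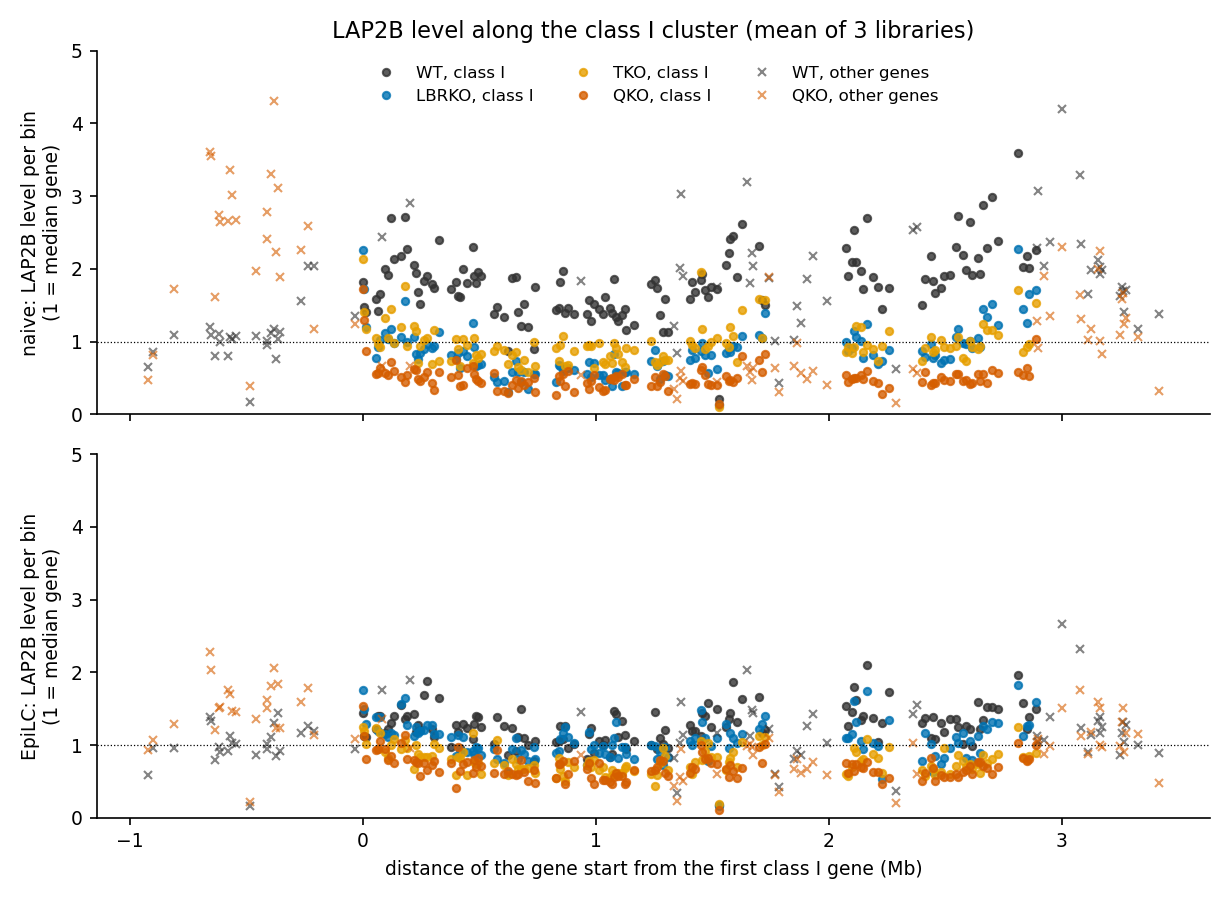
LAP2B level per bin along the class I cluster in naive cells and EpiLCs, plotted against the distance of each gene start from the first class I gene in Mb. Dots are the class I genes of the cluster in all genotypes and crosses other protein-coding genes within or near it in WT and QKO, each the mean of 3 libraries; in naive QKO nearly all class I genes lie below 1, while most genes to the left of the cluster lie above it.

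Genes embedded among the receptors fell as well, while those outside the cluster went in both directions. Over all genes 27.7%, 27.6% and 42.5% fell in naive LBRKO, TKO and QKO on the relative scale. Of the 25 tested genes that are no receptors but lie within the cluster, 20 fell in LBRKO, 15 in TKO and 24 in QKO. All 5 beta-globin genes, which encode the beta chains of haemoglobin, were among them in LBRKO and QKO, and 4 in TKO. Hbb-bh1, an embryonic globin, was at 2.723, 3.387 and 3.000 in naive WT and at 0.923, 0.582 and 0.278 in QKO (-2.35 ± 0.28, adjusted p 1.77e-10). The receptors on either side, Or52z1 and Or51b4, changed by -1.85 ± 0.24 (1.17e-09) and -2.02 ± 0.24 (1.53e-10). Of the 11 Trim genes within the cluster, which encode ubiquitin ligases, 6, 5 and 10 fell, and 1 rose in TKO.

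Outside its ends, among 47 tested genes within 1 Mb, 27 rose and 2 fell in LBRKO, 15 rose and 8 fell in TKO, and 22 rose and 16 fell in QKO. Over all genes 28.9%, 21.8% and 33.1% rose in the same order, beside the shares that fell given above. When split by side, a choice made after the values were seen, the 27 genes before the first receptor held all 22 that rose in QKO, and 3 of them fell, with a group median going from 1.028 ± 0.050 in WT to 2.375 ± 0.345. Of the 20 genes after the last receptor, 0 rose and 13 fell in QKO, and their median went from 2.024 ± 0.030 to 1.281 ± 0.040. On the spike-in scale, where 10.1% of all genes rose in QKO and 65.5% fell, 0 of the genes before the cluster rose. Of these 11 fell, and all 20 after the cluster fell. The 22 gains in QKO on the relative scale were thus not called by spike-in, which is not said here of LBRKO or TKO. Whether they are gains in amount or only in share of the LAP2B signal was not tested. Or52w1, the last receptor, was at 1.942, 1.946 and 2.906 in WT and at 0.451, 0.899 and 1.750 in QKO (-1.26 ± 0.36, adjusted p 0.001).

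In EpiLCs the WT level of the cluster was lower and the genotypes lay closer together. The paper left LAP2B out of its work on mutant EpiLCs, because in WT EpiLCs the signal lay both within and outside lamin B1 domains. A smaller loss in EpiLCs is therefore not read here as contact kept at the nuclear edge, which was not tested. The median level per bin was 1.406, 1.161 and 1.131 in WT (1.233 ± 0.151, SD, n = 3). LBRKO libraries were at 1.069, 1.080 and 1.024 (1.057 ± 0.030). TKO libraries were at 0.760, 0.784 and 0.803 (0.782 ± 0.021), and those of QKO at 0.655, 0.681 and 0.730 (0.689 ± 0.038). The 4 groups did not overlap, and QKO remained lowest, for 95 of the 133 genes, with TKO lowest for 34 and LBRKO for 4. This order too was not counted over all genes. LBRKO was the closest of the mutants to WT.

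On the relative scale LAP2B fell in EpiLCs over 6 members in LBRKO, against 10.1% of all genes, with a median of -0.21. It fell over 59 in TKO, against 9.97% of all genes, with a median of -0.62, and over 91 in QKO, against 17.8%, with a median of -0.79. The share of members called in LBRKO was thus below that of all genes. Without EpiLC WT replicate 1 the counts were 0 in LBRKO and 25 in TKO, and without EpiLC TKO replicate 1 the latter was 32. The 6 members that fell in LBRKO included Or51e2 (-0.44 ± 0.15, adjusted p 0.021) and Or51a43 (-0.71 ± 0.23, adjusted p 0.017). By spike-in neither passed (-0.41, adjusted p 0.369, and -0.68, adjusted p 0.164). Or51e2 in EpiLCs was at 1.843, 1.623 and 1.588 in WT, with LBRKO libraries at 1.173, 1.244 and 1.225. TKO libraries were at 0.806, 0.850 and 0.867, and those of QKO at 0.780, 0.741 and 0.743. Its 4 groups did not overlap, with -0.97 ± 0.15 in TKO (adjusted p 6.06e-06) and -1.16 ± 0.15 in QKO (1.66e-08).

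Whether a genotype changed LAP2B coverage differently at the stages was tested by the interaction, the EpiLC change minus the naive change. The interaction is positive where the EpiLC change lay above the naive one, by a smaller loss of coverage or by none, with the limit on EpiLC LAP2B given above. It was called higher over 64 members for LBRKO (10.2% of all genes), with a median of 0.88. For QKO it was 93 members (24.9% of all genes), with a median of 1.07. For TKO it was 3 members (5.79% of all genes), with a median of 0.33, namely Or52e4, Or52m2 and Or51t4. No member was called lower for any genotype. As a description, since the gene was named for its low naive LBRKO value, Or51ab3 gave 1.93 ± 0.33 for LBRKO, and its EpiLC levels of 0.944, 0.887 and 0.786 in WT and 0.935, 1.095 and 0.967 in LBRKO overlapped. For Or56a3, named for its fall in naive QKO, the QKO value was 1.97 ± 0.30, which is likewise favoured by the choice.

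The count for LBRKO was 27 without naive WT replicate 2, 39 and 41 without naive LBRKO replicates 2 and 3, and 40 without EpiLC WT replicate 3. With spike-in scaling the interaction was called over 1 member for LBRKO (0.0938% of all genes), 2 for TKO (0.824%) and 86 for QKO (21.9%), with medians of 0.75, 0.64 and 1.29 (-0.09, 0.41 and 0.45 over all genes). The LBRKO medians were thus close on both scales, while the number of calls was not.

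Within WT, the step from naive cells to EpiLCs was tested for each antibody in its own table on the relative scale. LAP2B fell over 41 members, against 17.1% of all genes, with a median of -0.51. Among them were Or52l1 (-0.98 ± 0.19) and Or56a3 (-1.09 ± 0.21), whose values are a description, since they were named for a high naive WT level and for the largest fall from naive WT. Or51e2 kept values that overlapped between the stages (-0.15 ± 0.15, adjusted p 0.464). Single libraries weighed on this count, which was 12 without naive WT replicate 2 and 23 and 21 without EpiLC WT replicates 2 and 3, and on the spike-in scale it was 7 (1.75% of all genes). LMNB1 fell over 11 members, against 7.09% of all genes, with a median of -0.26, and the level per bin was 1.677, 2.109 and 1.725 in EpiLCs (1.837 ± 0.237), overlapping the naive libraries. With spike-in scaling 0 members were called for LMNB1, and the median was 0.02. Or52l1 was one of the 11 (-0.82 ± 0.17). Without LMNB1 naive replicate 2 the count was 37, without naive replicates 1 and 3 it was 3 and 4, and without EpiLC replicate 1 or 3 it was 1. IGG gave 0 calls, against 0.418% of all genes, with a median of -0.29 and 27 members at an unadjusted p under 0.05 in either direction, against 13.1% of all genes. The same IGG comparison gave 0 calls by edgeR and by DESeq2.

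On the spike-in scale, which also holds the yeast spike-in factor, the naive losses were larger in TKO and QKO. The signal was already divided by sequencing depth before that factor, so it is not a direct measure of the DNA released. The deposited value per bin had a median over the members of 0.930 ± 0.310 in naive WT (SD, n = 3; 0.720 to 1.29). LBRKO gave 0.453 ± 0.0512, TKO 0.288 ± 0.0576 and QKO 0.0880 ± 0.0039. LAP2B fell over 133 members in QKO (65.5% of all genes), 126 in TKO (47.5%) and 104 in LBRKO (17.8%), with medians of -2.95, -1.56 and -0.97. Over all genes the medians were -1.24, -0.65 and 0.21, so the members lay below the general shift in each. Without naive WT replicate 2 the LBRKO count was 47, and it was also lower with the factor applied to reads, as given below. The naive IGG value over the same genes in WT was 0.0991 ± 0.0279, in a table scaled separately, and no IGG library of a mutant was analysed here. These IGG libraries ran from 0.067 to 0.118, a range that holds the QKO value.

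EpiLC values on this scale were 0.701 ± 0.180 in WT and 0.613 ± 0.0202 in LBRKO, with 0.373 ± 0.102 for TKO and 0.203 ± 0.01 for QKO. The EpiLC IGG value over the same genes in WT was 0.1715 ± 0.099, in a table scaled separately. Its libraries ran from 0.1101 to 0.2857, a range that holds the QKO value. The members that fell numbered 130 in QKO (55.7% of all genes), 64 in TKO (9.37%) and 2 in LBRKO (3.48%), with medians of -1.61, -0.86 and -0.18. The LBRKO median turned to 0.23, with 0 members lower and 4 higher, when the factor was applied to reads, and to 0.01 without EpiLC WT replicate 1. The TKO count depended on single EpiLC libraries. Leaving out a TKO sample gave 99 (replicate 1), 21 (replicate 2) or 12 (replicate 3), and leaving out WT replicate 1 or 3 gave 4 or 25. The QKO count kept between 123 and 132 whichever library was left out. The spike-in factor falls as yeast reads rise, so an error in the yeast count moves all genes of a library alike.

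Class II receptor genes, which are spread over many chromosomes, were the closest comparison. Their median level per bin in naive cells was 1.427 (WT), 0.638 (LBRKO), 0.867 (TKO) and 0.525 (QKO), so they lay below class I in the first 3 genotypes and slightly above it in QKO. Of 1016 tested class II genes, 813, 678 and 913 fell in LBRKO, TKO and QKO, with medians of -1.11, -0.77 and -1.56, and 8, 6 and 21 rose. On chromosome 7 itself, 89, 90 and 107 of 115 class II genes fell. Among the 1665 tested chromosome 7 protein-coding genes that are no receptors, 374, 397 and 498 fell and 626, 764 and 937 rose. Whether class I and class II differ was not tested, as genes of a cluster are not independent.

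**Figure D5:**
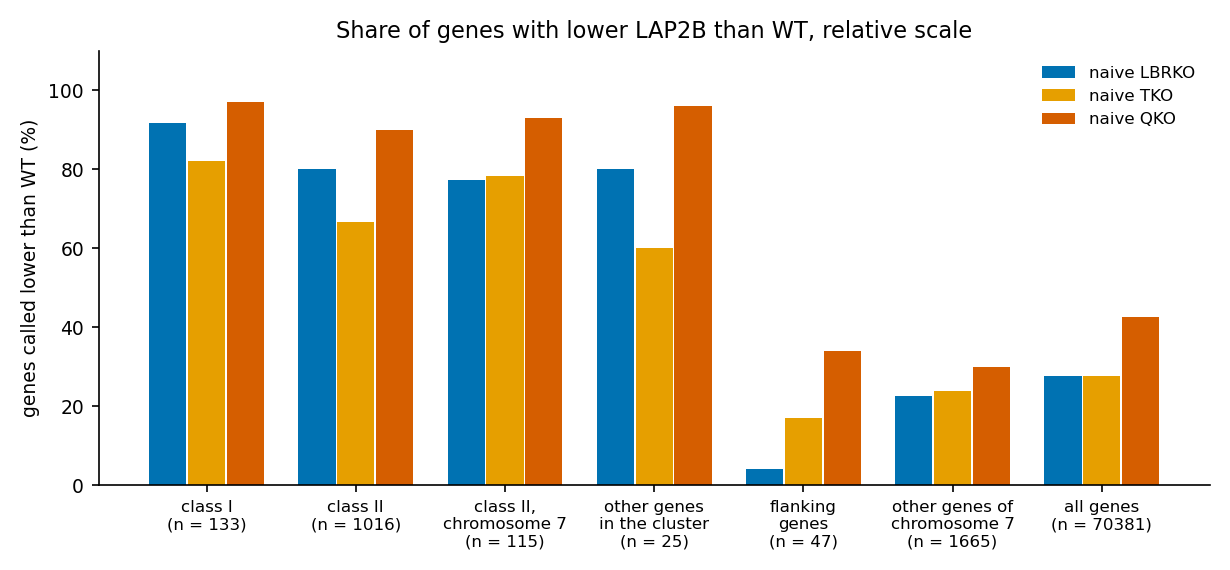
Percentage of tested genes with lower LAP2B than WT in naive LBRKO, TKO and QKO on the relative scale, for class I genes and for the lists they are set beside. Bars start at 0; in class I the counts are 122, 109 and 129 of 133, and in class II they are 813, 678 and 913 of 1016.

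The genes that serve olfactory receptors in the neuron but lie outside the cluster were read the same way. Of these, the signalling gene Cnga4 is also among the flanking genes counted above. Of all tested genes, 28.9%, 21.8% and 33.1% rose in naive LBRKO, TKO and QKO on the relative scale, beside the shares that fell given above. Of 15 genes of signal transduction, 9 rose and 2 fell in naive LBRKO, 6 rose and 5 fell in TKO, and 7 rose and 4 fell in QKO. In QKO these included Gnb1, a G protein beta subunit (2.00, adjusted p 1.35e-20), and Adcy3, the cyclase of the olfactory cilium (1.11, 3.67e-14), among those that rose. Ano2, a calcium-gated chloride channel (-1.49, 1.37e-20), and Cnga2, a subunit of the cyclic nucleotide-gated channel (-1.33, 1.05e-06), were among those that fell. Of the 3 genes for receptor transport, Reep1 rose in QKO (0.81, 4.76e-11) and Rtp1 and Rtp2, which carry receptors to the cell surface, fell (-0.60 each, 0.030 and 0.037). Of 11 regulators of receptor choice, 5 rose and 4 fell in QKO. Ldb1, the partner of LHX2 in bringing receptor enhancers together, rose (2.74, 6.06e-23), and Ebf1, whose sites lie near receptor genes, fell (-0.68, 1.63e-10). In naive QKO on the spike-in scale, where 10.1% of all genes rose and 65.5% fell, 4 of the 15 signalling genes rose and 9 fell, 0 of the 3 transport genes rose and 2 fell, and 3 of the 11 regulators rose and 8 fell. Adcy3 and Reep1 changed sign there, at -0.13 (adjusted p 0.627) and -0.43 (0.079), while Gnb1 and Ldb1 stayed above WT at 0.77 (0.002) and 1.52 (1.39e-08).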

How the data were processed

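The authors aligned paired reads to mm39 with Bowtie2 2.3.5.1, kept proper pairs with SAMtools 1.10 and removed duplicates, computed coverage in 1 kb bins with deepTools and left out blacklisted regions. Each library's RPKM signal was scaled by a factor inverse to its reads from 0.3 pg of yeast spike-in DNA. The deposited signal values sum this over the 1 kb bins a gene touches, as tested on the 343 sets of genes that touch the same single bin, all 343 equal within 0.0001. Whole reads were recovered for 100% of values within 0.05 of a whole number. Gene positions were taken from GENCODE M39 on GRCm39, which matched 78131 of 78202 genes.

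limma 3.58.1 (R 4.3.3) was fitted to log2 values with a pseudocount of 0.1 of the median, 1 model over the 24 LAP2B libraries and 1 each for LMNB1 and IGG, with no replicate block. Changes are on that log2 scale, which understates those of low genes. edgeR 4.0.16 and DESeq2 1.42.0 on recovered reads, other pseudocounts, centrings and filters, and leaving out libraries were alternatives. limma and edgeR, but not DESeq2, were also run on simulated counts. Few genes changed there, so this does not check fits where many genes change, as in naive QKO. Members named are the 3 with the lowest and the 3 with the highest naive change per genotype, the 3 with the highest and lowest WT level, the 3 highest in LMNB1, the cluster's ends, the beta-globin genes with the receptors beside them, and Or51e1, Or51e2 and Or55b4. The members beyond the cluster and those listed at 0 were added after their values were seen. The members, lists and rules were chosen with earlier results of these data known. Replicate pairs differed by more than sampling noise (chi-square per degree of freedom 3.42 to 13.06 over 36 pairs). The 2 H3K9me3 samples were not analysed here.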

Additional observations from a re-analysis of the deposited data

Results flagged for a closer look

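The effect of a genotype on LAP2B differed between naive cells and EpiLCs, by a test of the interaction itself (limma, relative scale, Benjamini-Hochberg over all genes), over 64 of the 133 tested class I genes for LBRKO, against 10.2% of all genes, and over 93 for QKO, against 24.9%. For TKO it was 3 members, against 5.79% of all genes, a lower share than that of all genes on this scale. That count was higher with a pseudocount of 1 and lower with DESeq2, as given below. In each called gene the change in EpiLCs lay above the change in naive cells. This is a difference in LAP2B coverage. Whether contact with the nuclear edge differed was not tested, given the limit on EpiLC LAP2B stated in the results. On the spike-in scale the counts were 1, 86 and 2 for LBRKO, QKO and TKO, against 0.0938%, 21.9% and 0.824% of all genes, so the LBRKO count depended on the scale. The naive comparisons and the interactions share the naive WT libraries, of which replicate 2 had the highest median class I level (2.131, against 1.641 and 1.615). Without that library the counts were 27 for LBRKO, 2 for TKO and 76 for QKO.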

How the results depend on the processing

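All counts are of the 133 tested members called, in the direction given in the results. Over 21 counts and their alternatives, 255 of 312 values stayed within 1.5 times the main one, 55 moved further and 2 reversed. Counting other sets of members (4 choices in 21 comparisons) left all 84 median changes in the same direction and within the main spread. Over the 312 values, the median changed sign in 5. Under the spike-in scale it was -0.60 for TKO minus LBRKO, 0.02 for the LMNB1 and 0.64 for the IGG stage change, and for EpiLC LBRKO on that scale 0.23 with the factor applied to reads and 0.01 without EpiLC WT replicate 1. Of 5906 values for named genes, 5335 kept direction and side of the threshold, 221 were no longer called, 105 became called, 238 changed sign without being called under either setting, and 7 reversed. These were on the spike-in scale TKO minus LBRKO for Or52j3 (-0.11), Or52z13 (-0.02) and Or51e2 (-0.64), QKO minus LBRKO for Or52j3 (-1.05), Or51ab3 (-1.04) and Or52z13 (-0.91), and EpiLC QKO for Or55b3 (-0.77). edgeR and DESeq2 on recovered reads called 129 and 129 members in naive QKO, 124 and 121 in LBRKO and 107 and 105 in TKO. With the spike-in scale in place of the relative one, the count was 2 for EpiLC LBRKO, 0 for TKO minus LBRKO (reversed, with 43 lower), 1 for the LBRKO interaction, 7 for the WT LAP2B stage change and 0 for LMNB1. In the reverse direction EpiLC LBRKO gave 6. Dividing by the mean gene gave 11 for EpiLC LBRKO, 31 for TKO minus LBRKO, 16 for the WT LAP2B stage change and 3 for LMNB1. A pseudocount of 1 gave 10 for EpiLC LBRKO, 12 for the TKO interaction and 63 for the WT LAP2B stage change. Without a filter there were 5 for TKO minus LBRKO, 0 for LMNB1 and, on the spike-in scale, 0 for EpiLC LBRKO and 39 for EpiLC TKO. DESeq2 gave 1 for the TKO interaction. On the spike-in scale EpiLC LBRKO also gave 1 with a pseudocount of 0.01, 1 with edgeR and 0 with DESeq2. Applying the spike-in factor to reads gave 51 for naive LBRKO, 0 for EpiLC LBRKO (reversed, with 4 higher) and 27 for EpiLC TKO. The cause of these shifts was not tested.

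Samples with the same replicate number did not vary together (r from -0.116 to 0.176 over 84 pairs). Those with different numbers gave -0.139 to 0.189 over 168 pairs, so no pairing by number was seen. With a replicate block the LMNB1 stage count was 6 and EpiLC LBRKO on the spike-in scale 1, and the other counts stayed within 1.5 times.

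Leaving out one library at a time gave, in naive cells, 109 to 120 for LBRKO, 96 to 116 for TKO, 129 to 131 for QKO, 95 to 114 for QKO minus TKO, 73 to 102 for QKO minus LBRKO and 4 to 11 for TKO minus LBRKO, the lowest without naive LBRKO replicate 2. EpiLC counts were 0 to 7 for LBRKO, 25 to 53 for TKO and 69 to 94 for QKO. Interaction counts were 27 to 76 for LBRKO, 2 to 6 for TKO and 76 to 97 for QKO. The WT stage counts were 12 to 43 for LAP2B, 1 to 37 for LMNB1 and 0 for IGG. On the spike-in scale they were 47 to 107, 117 to 129 and 133 in naive LBRKO, TKO and QKO, and 0 to 3, 4 to 99 and 123 to 132 in EpiLCs. Where 1 arm was left with 2 samples, its spread was pooled with the other groups.

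The level per bin against the mean gene was 0.673 in naive LBRKO, 0.807 in TKO and 0.319 in QKO, and in EpiLCs 0.958, 0.731 and 0.610, with 0.662 for EpiLC IGG. Without division by bins it was 0.423 in naive QKO, 1.148 in EpiLC LBRKO, 0.817 in EpiLC TKO and 0.749 in EpiLC IGG. Counting members without shared bins, or without the Or55 genes, were alternatives chosen after seeing the data.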
